A study of Mus musculus with 8 samples.

Results

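The genes described here are the collagens and matrix proteins, a matrix enzyme and growth factor receptors of fibroblasts, which other cells may also express. They are the protein-coding genes of the count table whose symbol is that of a collagen chain or is Dcn, Lum, Bgn, Vcan, Fn1, Fbn1, Mfap5, Postn, Sparc, Lox, Pdgfra or Pdgfrb. The rule, which uses names alone, found 51 of 25247 genes, of which 39 encode collagen chains. Of the collagens, 10 are fibrillar, 2 belong to the anchoring structures of the epidermis, 8 to basement membranes, 9 are fibril-associated, 7 are microfibril or short-chain collagens and 3 are transmembrane or other collagens. The table came from a study of Langerhans cells, the dendritic cells that reside in the epidermis. They were isolated from the ear skin of C57BL/6 mice, either wild type (WT) or EZH2 -/- (KO), and sorted as live CD45+ MHCII+ CD24+ EpCAM+ cells without Ly6G or CD103. EZH2 is the histone methyltransferase of a Polycomb repressive complex, and the labels give neither age, sex, treatment nor the driver of the deletion.

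Each of the 8 bulk RNA-seq libraries carries a code, and the code in a title and the code in a description name the same column for RMN030 and RMN031 (WT) and for RMN038 and RMN039 (KO). The titles make RMN032 and RMN033 KO and RMN036 and RMN037 WT, and the descriptions make them the reverse. Tests were therefore run for the 4 undisputed libraries (2 WT, 2 KO), for the title reading (4 WT, 4 KO) and for the description reading (4 WT, 4 KO). The description reading sets the earlier code run (RMN030 to RMN033) against the later one (RMN036 to RMN039), so genotype and code run cannot be told apart in it, nor in the undisputed libraries. Whether each library stands for its own animal is not in the labels, so the p-values speak only of the spread from library to library, part of which may be technical.

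Fibrillar collagens are trimeric proteins that fibroblasts of the dermis secrete as procollagens, trim and cross-link into fibrils, with small leucine-rich proteoglycans such as decorin on their surface. Basal keratinocytes make a different set: collagen XVII spans their membrane in hemidesmosomes, and collagen VII forms the anchoring fibrils that tie the basement membrane to the dermis. Langerhans cells are not known as a source of fibrillar collagen and lie among keratinocytes, above that basement membrane.

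Library totals ranged from 11051402 to 18966195 counts, so that 3 counts, the limit that a count of 0 allows, correspond to between 0.158 and 0.271 counts per 1000000 counts of a library (CPM). The Langerhans cell gene Cd207 stood at 9706 to 11963 CPM and Epcam at 558 to 672 CPM. The targeted gene, Ezh2, had 15.7, 22.4, 15.2 and 14.9 CPM in RMN030 to RMN033 and 19.0, 17.6, 12.7 and 10.5 CPM in RMN036 to RMN039. The 2 undisputed KO libraries were the lowest. By the title codes every KO library (10.5 to 15.2 CPM) lay below every WT library (15.7 to 22.4 CPM), narrowly between RMN032 and RMN030. Of all tested genes, 1.53% were lower in KO without overlap in that reading. By the description codes the Ezh2 groups overlapped. The deleted exons are not given in the labels, so a count over the whole gene does not settle the genotype of the disputed libraries. Mitochondrial genes took 1.02% to 1.87% of counts in the earlier run and 3.76% to 4.03% in the later run. Transcripts of 8 T cell markers summed to 186 and 206 CPM in RMN031 and RMN030 and to at most 8.87 CPM in the other libraries.

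On a scale that takes the length of the exons into account, CPM per kilobase of exon, Col17a1 stood far above every other gene of the set (the plot of levels per length). Its mean over the 8 libraries was 356 CPM per kilobase, followed by 30.5 for Col16a1, which coats fibrils and is also made by keratinocytes, and 26.3 for Postn, the matricellular protein periostin. Sparc, a collagen-binding matricellular protein, had 8.27, and Col7a1 had 8.26. Next came Col18a1 of basement membranes (5.63), the proteoglycan Dcn (4.01), Col4a6 (3.42), Col6a1 (2.62) and Col4a5 (2.31). The highest fibrillar chain on this scale, Col1a1, had a mean of 2.18 CPM per kilobase, and its partner in collagen I, Col1a2, 1.26. Without division by length the order was reversed, with means of 14.3 CPM for Col1a1 and 15.7 CPM for Col1a2. A count was present in every library for 30 of the 51 genes. Pdgfra, a receptor of fibroblasts, had no count in 4 libraries and at most 2.56 CPM. Mfap5, a microfibril protein, was counted in 2 libraries, at most at 0.142 CPM, and Col26a1 and Col6a6 were counted in 1 library each.

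**Figure D1:**
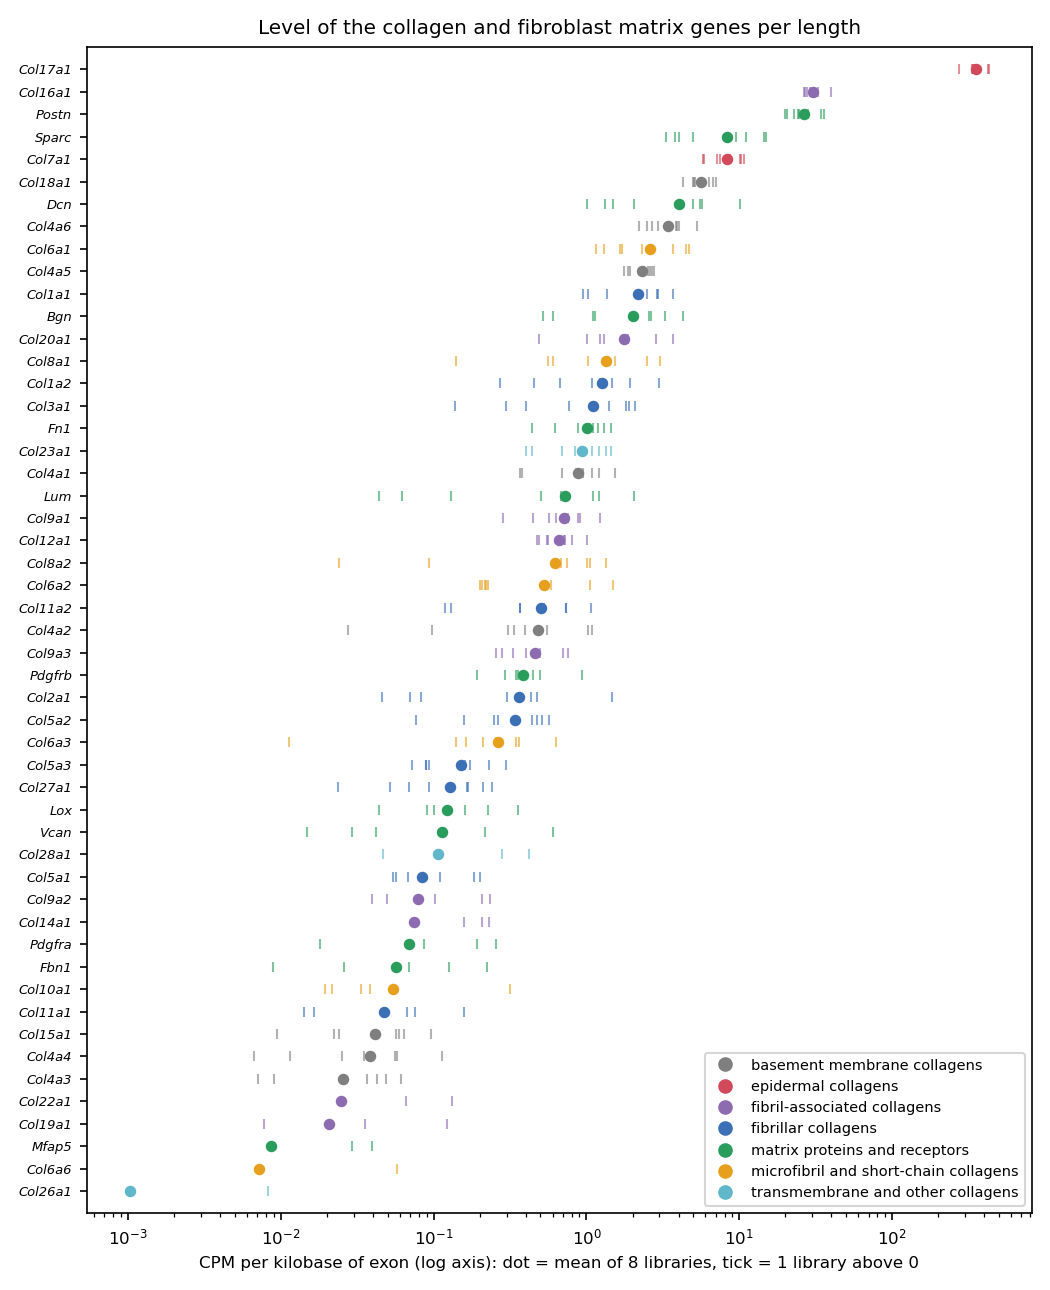
Mean level of each of the 51 genes over the 8 libraries (dots) and in each library with a count (ticks), in CPM per kilobase of exon on a log axis, coloured by class. Col17a1, at a mean of 356 CPM per kilobase, lies far above the next gene, Col16a1, at 30.5.

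The windows from 250 bases before to 50 bases after the transcription start, from RefSeq on GRCm38.p6, are shown for a pair of genes that were higher in the later code run, Col1a2 and Bgn, and for the pair of epidermal collagens. They are 5′ to 3′ on the strand of the gene, and capitals mark the TATA box motif TATAAA, the CCAAT box motif, which is those 5 letters, and the GC box motif GGGCGG. Each was searched on both strands, so its reverse complement is in capitals as well, and matches may overlap.
Col1a2, chr6:4505368-4505667, plus strand: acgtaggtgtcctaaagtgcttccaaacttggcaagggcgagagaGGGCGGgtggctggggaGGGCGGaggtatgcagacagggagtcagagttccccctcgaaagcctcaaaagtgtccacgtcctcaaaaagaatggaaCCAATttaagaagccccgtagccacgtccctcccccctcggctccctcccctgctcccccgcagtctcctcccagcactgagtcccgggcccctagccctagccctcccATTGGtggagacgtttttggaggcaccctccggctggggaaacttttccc
Bgn, chrX:73483351-73483650, plus strand: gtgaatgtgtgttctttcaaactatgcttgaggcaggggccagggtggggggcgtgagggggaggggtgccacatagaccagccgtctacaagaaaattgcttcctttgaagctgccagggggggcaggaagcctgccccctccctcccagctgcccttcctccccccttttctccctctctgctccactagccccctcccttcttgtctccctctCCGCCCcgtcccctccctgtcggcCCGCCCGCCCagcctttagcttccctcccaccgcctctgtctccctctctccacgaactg
Col7a1, chr9:108953336-108953635, plus strand: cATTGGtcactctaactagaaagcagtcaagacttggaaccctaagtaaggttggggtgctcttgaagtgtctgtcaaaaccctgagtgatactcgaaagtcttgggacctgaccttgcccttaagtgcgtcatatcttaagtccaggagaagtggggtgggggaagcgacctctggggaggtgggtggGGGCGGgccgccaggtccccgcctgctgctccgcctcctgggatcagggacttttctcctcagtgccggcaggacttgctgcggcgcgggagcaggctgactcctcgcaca
Col17a1, chr19:47691993-47692292, minus strand: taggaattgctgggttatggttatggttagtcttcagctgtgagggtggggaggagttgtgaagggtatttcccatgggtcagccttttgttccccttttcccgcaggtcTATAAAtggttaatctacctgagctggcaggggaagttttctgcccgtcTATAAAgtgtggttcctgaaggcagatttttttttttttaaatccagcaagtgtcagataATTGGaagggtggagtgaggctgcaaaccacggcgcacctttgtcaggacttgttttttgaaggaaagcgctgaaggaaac

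The Col17a1 window holds 2 TATAAA and 1 CCAAT, the Col7a1 window 1 CCAAT and 1 GGGCGG, the Col1a2 window 2 CCAAT and 2 GGGCGG, and the Bgn window 3 GGGCGG. RefSeq windows were matched for 36 of the 51 genes, 40 windows in all. TATAAA was found in 5 of these 40 windows and in 13.6% of all 32851 windows of this length, CCAAT in 13 and 37.4%, GGGCGG in 23 and 35.7%, and TGACTCA, the AP-1 motif, in 1 and 5.20%. These are matches of letters and describe the windows only.

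The fibrillar and the epidermal collagens were summed in each library (the plot of summed levels). Together the 10 fibrillar genes had 56.5, 26.4, 21.9 and 23.9 CPM in RMN030 to RMN033 and 78.7, 65.9, 97.0 and 68.8 CPM in RMN036 to RMN039. Each library of the later run was above each library of the earlier run, and RMN030 was the highest of the earlier ones. Col7a1 and Col17a1 together had 2181, 2079, 2689 and 2673 CPM in RMN030 to RMN033 and 2096, 2212, 1695 and 2163 CPM in RMN036 to RMN039, and here the runs overlapped. The ratio of the epidermal to the fibrillar sum was 38.6, 78.8, 123 and 112 in RMN030 to RMN033 and 26.7, 33.6, 17.5 and 31.5 in RMN036 to RMN039. In the description reading the fibrillar sum averaged 32.2 ± 16.3 CPM in the 4 WT libraries and 77.6 ± 14.1 CPM in the 4 KO libraries (mean ± SD), a ratio of geometric means of 2.58. Over the undisputed libraries it averaged 41.5 ± 21.3 CPM in the 2 of WT and 82.9 ± 20 CPM in the 2 of KO (mean ± SD), a ratio of 2.12. In the title reading it averaged 56.9 ± 22.2 CPM in the 4 WT libraries and 52.9 ± 36.5 CPM in the 4 KO libraries (mean ± SD), and the groups overlapped. The epidermal sum averaged 2406 ± 321 CPM in WT and 2041 ± 236 in KO by the description codes and 2142 ± 64.4 and 2305 ± 475 by the title codes (SD, n = 4 each), and 2130 ± 72.2 and 1929 ± 331 in the undisputed libraries (SD, n = 2 each). In bulk RNA a smaller number of cells of one type and less RNA per cell cannot be told apart. These sums are descriptions and carry no test.

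**Figure D2:**
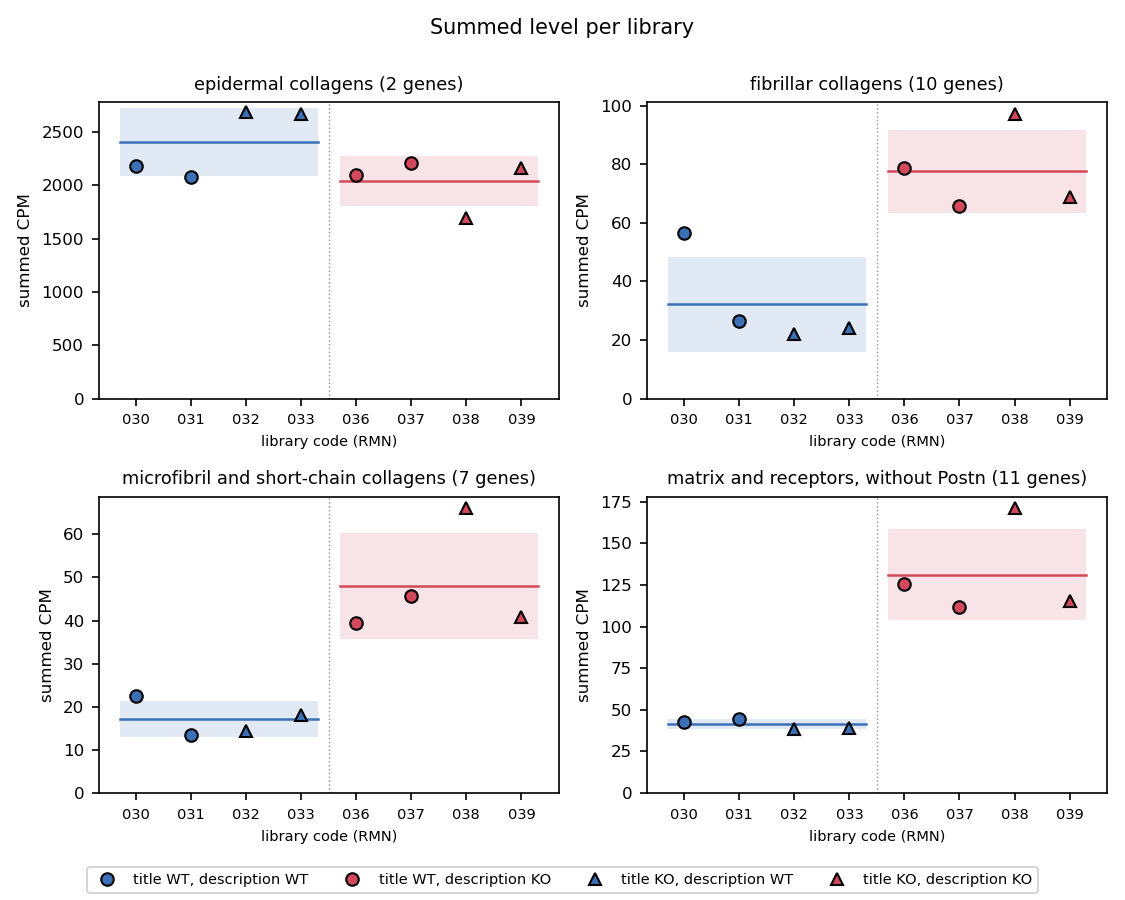
Summed CPM per library of 4 groups of genes (the matrix proteins and receptors without Postn, the most abundant of them, left out after its values were seen), with libraries in code order, the mean (line) and SD (band) of each code run, colour for the genotype by description and shape for the genotype by title. The fibrillar sum is 21.9 to 56.5 CPM in the earlier run and 65.9 to 97.0 in the later run, while circles and triangles mix within each run. The epidermal sums overlap between the runs.

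In the undisputed libraries 4 genes of the set rose in KO and 0 fell: Dcn, Lum, Sparc and Bgn. All belong to the noncollagenous matrix genes, and 0 of 26 tested collagens passed the threshold (edgeR's quasi-likelihood test with Benjamini-Hochberg adjustment over all genes tested, adjusted p below 0.05), with 11 collagens at an unadjusted p below 0.05 and 3 called by DESeq2. Of the 51 genes 36 passed the filter on low counts. The 2 WT libraries here are the pair with T cell transcripts, and 5 of 7 tested T cell markers were called lower in KO. The share of all tested genes called in these libraries was 0.794%, with 0.448% higher and 0.346% lower in KO. The median log2 difference was 0.87 over the 36 tested genes of the set and -0.00 over the 14727 tested genes. Because the filter keeps a gene that is high in 1 group only, these counts and medians describe the tested genes and do not stand for the set. The number called grew when RMN030 or RMN039 was left out. Such fits hold 1 library in a group, so their counts are not compared here.

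Under the description codes 8 genes rose in KO, Dcn, Sparc, Bgn, Col1a1, Col1a2, Col2a1, Col6a2 and Col8a1, and Col7a1 fell. They were called among 33 tested, where the share of all 14630 tested genes called was 2.02%, with 1.43% higher and 0.595% lower. The 8 that rose were 3 of 8 tested fibrillar collagens, 2 of 5 microfibril and short-chain collagens and 3 of 7 matrix proteins and receptors, and 0 of 5 basement membrane and 0 of 5 fibril-associated collagens passed (1 and 2 at an unadjusted p below 0.05; by DESeq2, 0 and 1). Without overlap between the 4 WT and the 4 KO libraries, 12 tested genes of the set were higher and 2 lower in KO, beside 3.74% and 5.09% of all tested genes. The median log2 difference was 0.82 over the tested genes of the set and -0.01 over all tested genes. The filter on low counts keeps a gene that is high in 1 group only here as well. These counts and the median therefore describe the tested genes and do not stand for the set. Dcn, Sparc and Bgn kept their call without any 1 library. The number called was 9 with all libraries, 4 without RMN033, RMN037 or RMN038 and 5 without RMN031, RMN036 or RMN039. The shares of all genes called in those smaller fits are not given here.

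By the title codes 0 of 33 tested genes of the set passed with edgeR, with 2 at an unadjusted p below 0.05, and 0 passed with DESeq2 or limma voom. The share of all 14630 tested genes called was 0 as well (percent called 0), with 672 at an unadjusted p below 0.05. The median log2 difference was 0.04 over the tested genes of the set and -0.00 over all tested genes. Between the 4 WT and the 4 KO libraries Col4a1 did not overlap and was higher in KO, and 0 were lower without overlap, beside 1.41% higher and 1.53% lower of all tested genes.

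**Figure D3:**
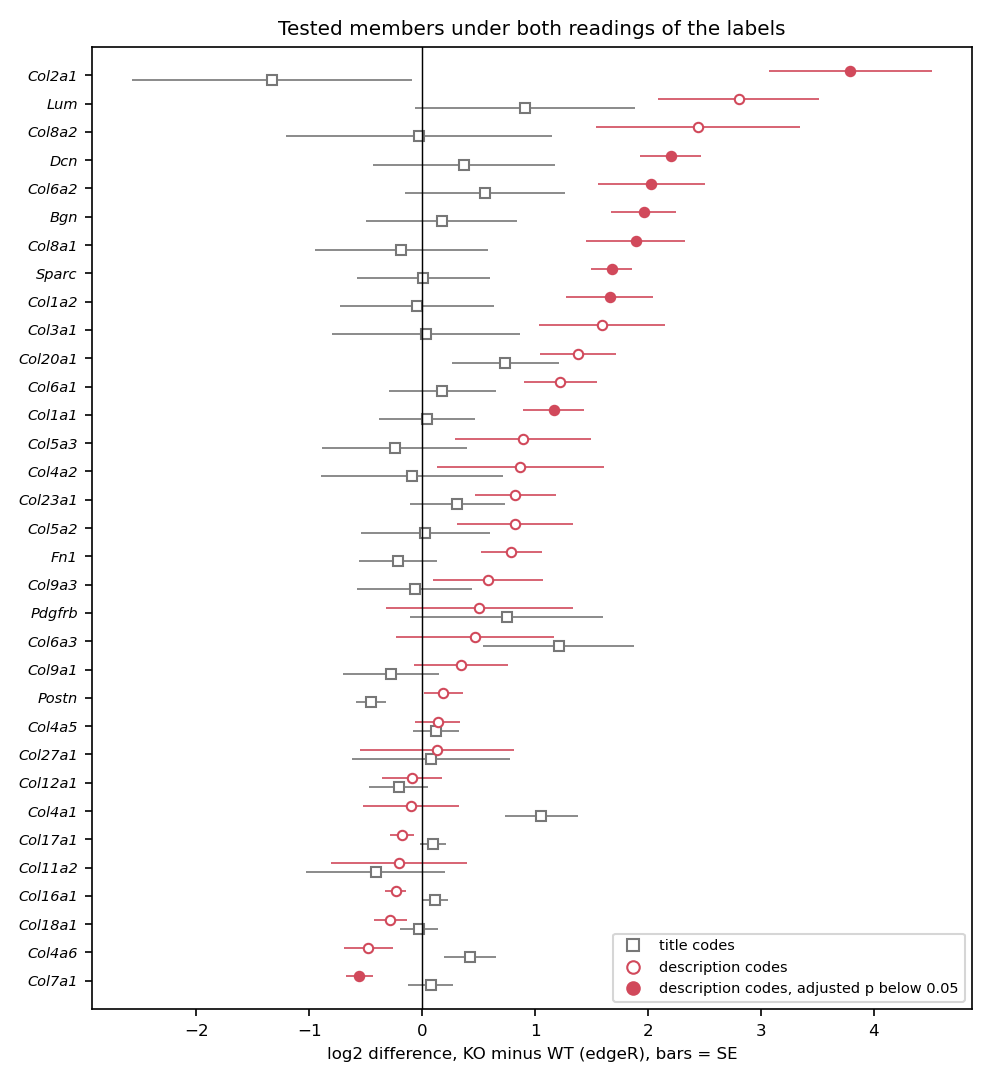
Log2 difference, KO minus WT, with its SE for the 33 tested genes under the title codes (squares) and the description codes (circles, filled where the adjusted p is below 0.05). Under the title codes most squares lie near 0 with bars that cross it, and 0 are called. Under the description codes 9 circles are filled, from Col7a1 at -0.56 to Col2a1 at 3.79.

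The proteoglycan decorin (Dcn, ENSMUSG00000019929, chromosome 10, 97479609 to 97518143, plus strand of GRCm38) binds collagen fibrils and sets their spacing. Its level was 8.71, 12.0, 7.72 and 5.85 CPM in RMN030 to RMN033 and 32.3, 28.9, 58.6 and 33.1 CPM in RMN036 to RMN039. Every later library exceeded every earlier one, and RMN038 was the highest. In the undisputed libraries Dcn was 10.3 ± 2.30 CPM in the 2 WT libraries and 45.9 ± 18.0 CPM in the 2 KO libraries (mean ± SD), a log2 difference of 2.19 ± 0.32 (SE, edgeR adjusted p = 0.00716). The description codes gave 2.20 ± 0.27 (SE, edgeR adjusted p = 0.000764) and the title codes 0.37 ± 0.81 (SE, edgeR adjusted p = 0.998).

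Biglycan (Bgn, ENSMUSG00000031375, chromosome X, 73483602 to 73495933, plus strand), the closest relative of decorin in this set, followed the same order of runs, with 3.67, 6.68, 3.19 and 6.91 CPM in RMN030 to RMN033 and 19.8, 16.2, 26.3 and 15.6 CPM in RMN036 to RMN039. The 2 runs did not overlap. The log2 difference was 2.05 ± 0.39 in the undisputed libraries (SE, edgeR adjusted p = 0.0381) and 1.96 ± 0.29 by the description codes (SE, edgeR adjusted p = 0.00350). In the title reading it was 0.17 ± 0.67 (SE, edgeR adjusted p = 0.998).

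Lumican (Lum, ENSMUSG00000036446, chromosome 10, 97565128 to 97572703, plus strand), a further small leucine-rich proteoglycan and the neighbour of Dcn on the chromosome, was sparse. It had 0.153, 0.108, 1.23 and 0.316 CPM in RMN030 to RMN033 and 2.96, 1.68, 4.97 and 2.71 CPM in RMN036 to RMN039, and the runs did not overlap. The undisputed WT libraries held 4 counts together and the KO libraries 100, a depth-scaled ratio of 31.5 with a 95% counting interval of 11.9 to 117.9 (exact conditional binomial, counting error only). The fitted log2 difference was 4.87 ± 0.90 (SE, edgeR adjusted p = 0.0332), and the call was lost without RMN038 (adjusted p = 0.105) and with limma voom (adjusted p = 0.188). By the description codes the 30 WT and 172 KO counts gave a ratio of 6.77 (95% counting interval 4.58 to 10.3), and the edgeR adjusted p of 0.0632 missed the threshold. DESeq2 called Lum in that reading.

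Sparc (osteonectin, ENSMUSG00000018593, chromosome 11, 55394500 to 55423183, minus strand), which binds collagen and is needed for normal fibrils, had 12.6, 15.2, 14.3 and 18.8 CPM in RMN030 to RMN033 and 55.1, 42.0, 56.6 and 35.8 CPM in RMN036 to RMN039. The lowest later library, RMN039, lay well above the highest earlier one, RMN033. The log2 difference was 1.78 ± 0.28 in the undisputed libraries (SE, edgeR adjusted p = 0.0130) and 1.68 ± 0.18 by the description codes (SE, edgeR adjusted p = 0.000297). The title codes, which put 2 libraries of each run in each group, gave 0.01 ± 0.59 (SE, edgeR adjusted p = 0.998).

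The other matrix proteins did not share this pattern throughout. Postn, a protein of skin repair that supports cell adhesion, was 199, 246, 213 and 210.0 CPM in RMN030 to RMN033 and 299, 312, 179 and 172 CPM in RMN036 to RMN039. RMN036 and RMN037 were the highest and RMN038 and RMN039 the lowest, so the later run held both extremes. By the title codes the log2 difference of Postn was -0.46 ± 0.13 (SE, edgeR adjusted p = 0.998), from -0.11 within the earlier and -0.77 within the later run. Fibronectin (Fn1), which links cells to collagen through integrins, had 12.4, 7.22, 10.4 and 5.11 CPM in RMN030 to RMN033 and 13.8, 16.9, 15.3 and 12.8 CPM in RMN036 to RMN039. The Fn1 runs did not overlap, and by the description codes its log2 difference of 0.79 ± 0.27 had an edgeR adjusted p of 0.187. Pdgfrb, the receptor of pericytes and fibroblasts, ranged from 0 in RMN037 to 5.11 CPM in RMN038. Fbn1, the main protein of elastic microfibrils, Vcan, a large proteoglycan, and Lox, the lysyl oxidase that starts collagen cross-links, had no count in 2 or more libraries and reached at most 2.71, 8.69 and 1.70 CPM.

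Among the fibrillar collagens, Col1a1 (ENSMUSG00000001506, chromosome 11, 94936224 to 94953042, plus strand) encodes the major chain of collagen I. It had 14.2, 6.68, 8.95 and 6.22 CPM in RMN030 to RMN033 and 16.3, 19.3, 19.0 and 24.1 CPM in RMN036 to RMN039. The runs did not overlap, RMN030 being the closest of the earlier libraries to the later ones. In the description reading Col1a1 was 9.01 ± 3.66 CPM in the 4 WT libraries and 19.7 ± 3.24 CPM in the 4 KO libraries (mean ± SD), a log2 difference of 1.17 ± 0.27 (SE, edgeR adjusted p = 0.0441). The title codes gave 0.04 ± 0.43, and the undisputed libraries 1.09 ± 0.38 (SE, edgeR adjusted p = 0.291).

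Col1a2 (ENSMUSG00000029661, chromosome 6, 4504814 to 4541544, plus strand), the second chain of collagen I, had 13.4, 8.30, 3.37 and 5.64 CPM in RMN030 to RMN033 and 23.9, 18.2, 37.2 and 15.2 CPM in RMN036 to RMN039. The later libraries were again all above the earlier ones, and RMN038 was the highest. Under the description codes the log2 difference was 1.66 ± 0.39 (SE, edgeR adjusted p = 0.0441), and by the title codes -0.05 ± 0.68. The undisputed libraries gave 1.32 ± 0.42 (SE, edgeR adjusted p = 0.235), which missed the threshold. Both collagen I calls of the description reading were narrow: each was lost without any 1 of 7 of the 8 libraries (adjusted p up to 0.140 for Col1a1 and 0.147 for Col1a2), and each held without RMN030.

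Col3a1, whose homotrimer accompanies collagen I in dermal fibrils, had 13.7, 2.91, 1.35 and 3.95 CPM in RMN030 to RMN033 and 18.6, 7.49, 20.2 and 17.9 CPM in RMN036 to RMN039. RMN030 lay within the range of the later run, above RMN037, so the runs overlapped. The description reading gave a log2 difference of 1.59 ± 0.56 (SE, edgeR adjusted p = 0.208), which became 2.60 without RMN030 and then passed the threshold. For Col3a1 the title codes gave 0.03 ± 0.83 (SE, edgeR adjusted p = 0.998) and the undisputed libraries 1.25 ± 0.55 (SE, edgeR adjusted p = 0.429). Col1a1, Col1a2 and Col3a1 made up 62.3% to 83.2% of the fibrillar sum of a library.

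Col2a1, the collagen of cartilage, was sparse in the earlier run, with 0.764, 0.646, 0 and 0.422 CPM in RMN030 to RMN033, and had 4.03, 13.7, 4.40 and 2.81 CPM in RMN036 to RMN039. RMN037 stood apart with 228 of the 381 counts of the later run. By the description codes the 30 WT and 381 KO counts gave a depth-scaled ratio of 15 (95% counting interval 10.3 to 22.5, counting error only), and the edgeR adjusted p was 0.0161. The fitted log2 difference fell from 3.79 to 3.06 without RMN037, where the call was lost (adjusted p = 0.0755), as it was without RMN033. Col2a1 was not called in the undisputed libraries, at 2.39 ± 0.71 (SE, edgeR adjusted p = 0.205), nor by the title codes, at -1.33 ± 1.24 (SE, edgeR adjusted p = 0.998). Of the other fibrillar chains, Col27a1 had log2 differences of 0.13 ± 0.68 by the description and 0.08 ± 0.70 by the title codes, and Col5a1, Col5a2, Col5a3, Col11a1 and Col11a2, which belong to the minor fibrillar collagens, ranged from 0 to 7.40 CPM. Of these, Col5a2, Col5a3 and Col11a2 were tested in the undisputed libraries and in both readings of 8 libraries and were not called, while Col5a1 and Col11a1 were too low to be tested there.

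The microfibril and short-chain collagens, like the fibrillar ones, were higher in each library of the later run than in each of the earlier run, with summed levels of 22.6, 13.4, 14.3 and 18.2 CPM in RMN030 to RMN033 and 39.3, 45.8, 66.0 and 40.7 CPM in RMN036 to RMN039. Col6a2, a chain of the beaded filaments of collagen VI, had 1.68, 1.83, 1.72 and 1.79 CPM in RMN030 to RMN033 and 1.88, 8.75, 12.4 and 4.89 CPM in RMN036 to RMN039. RMN036 lay just above the earlier libraries, while RMN037, RMN038 and RMN039 were higher. In the description reading the log2 difference of Col6a2 was 2.03 ± 0.47 (SE, edgeR adjusted p = 0.0443), lost without any 1 of 7 libraries and kept without RMN036. The undisputed libraries gave 2.34 ± 0.53 (SE, edgeR adjusted p = 0.0850) and the title codes 0.56 ± 0.71 (SE, edgeR adjusted p = 0.998) for Col6a2. DESeq2 called Col6a2 in the undisputed libraries. Its partner Col6a1 had 10.1, 5.06, 7.23 and 5.69 CPM in RMN030 to RMN033 and 20.4, 7.43, 19.6 and 16.1 CPM in RMN036 to RMN039, with RMN037 below RMN030. The Col6a1 difference by the description codes was 1.22 ± 0.32 (SE, edgeR adjusted p = 0.0768) and did not pass with edgeR, while DESeq2 called Col6a1. Col6a3, the third chain, ranged from 0.134 CPM in RMN036 to 7.53 CPM in RMN038. Its log2 difference was 0.47 ± 0.70 by the description and 1.21 ± 0.67 by the title codes (SE, edgeR adjusted p = 0.866 and 0.998).

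Col8a1, a short-chain collagen of vessel walls and Descemet's membrane, had 4.73, 4.42, 1.10 and 7.96 CPM in RMN030 to RMN033 and 12.1, 23.6, 19.5 and 10.9 CPM in RMN036 to RMN039. The runs did not overlap, and RMN037 was the highest. Under the description codes Col8a1 differed by 1.89 ± 0.44 on the log2 scale (SE, edgeR adjusted p = 0.0443), a call lost without any 1 of 6 libraries and kept without RMN032 or RMN033. In the title reading the difference was -0.18 ± 0.77 (SE, edgeR adjusted p = 0.998). The Col8a1 difference in the undisputed libraries was 1.78 ± 0.39 (SE, edgeR adjusted p = 0.0712) and was not called with edgeR, while DESeq2 called Col8a1.

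**Figure D4:**
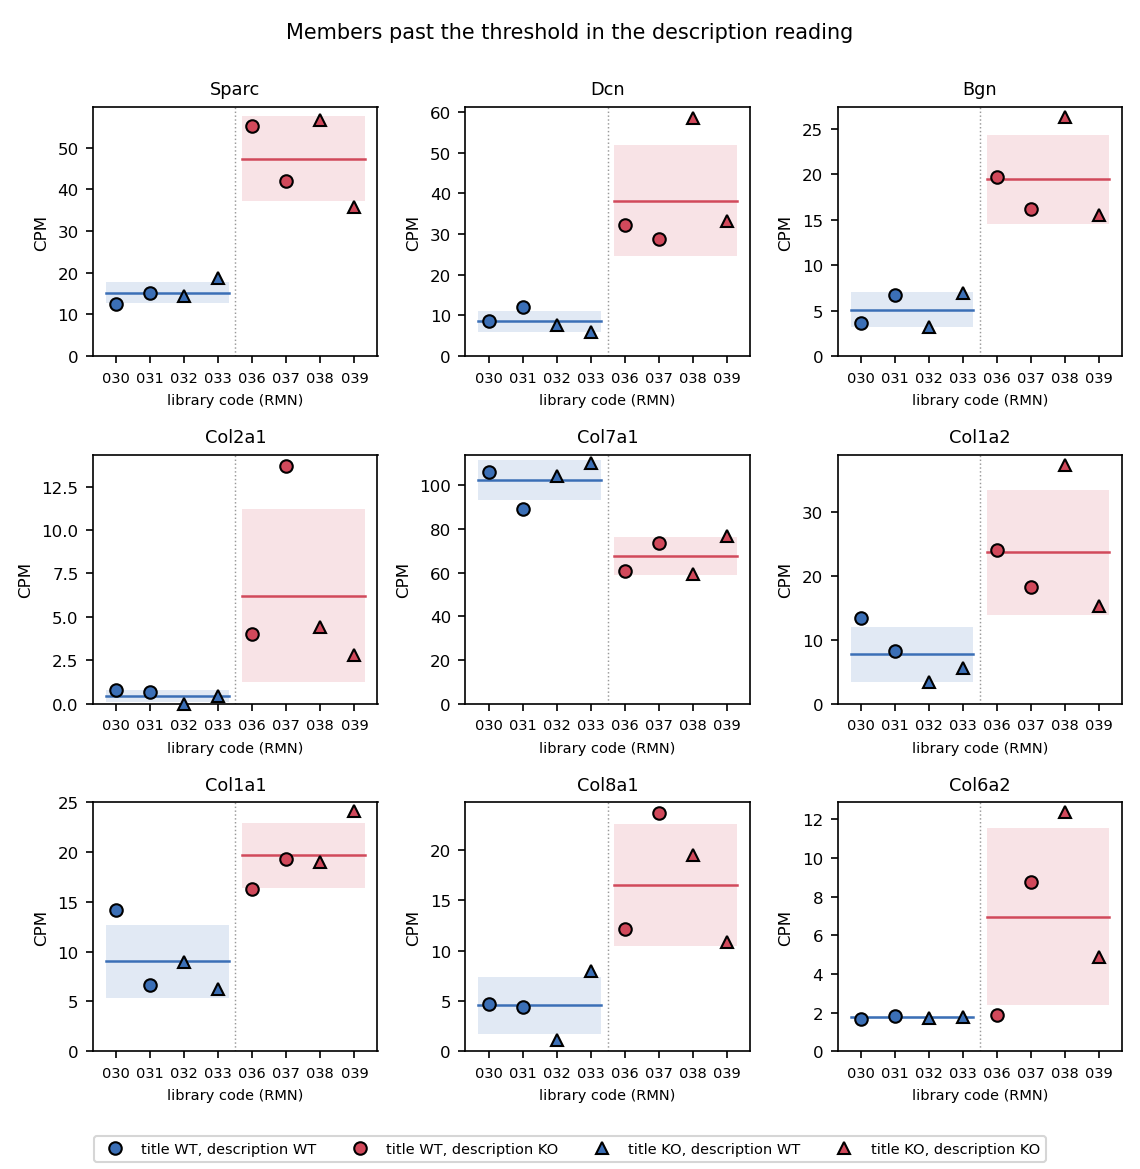
CPM of the 9 genes past the threshold by the description codes, per library in code order, with the mean (line) and SD (band) of each code run, colour for the genotype by description and shape for the genotype by title. In each panel the 4 later libraries lie on 1 side of the 4 earlier ones, for Col6a2 only narrowly in RMN036. Col7a1 is the 1 gene that is lower in the later run, at 59.4 to 76.7 CPM against 89.3 to 110.0.

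Of the epidermal collagens, collagen VII (Col7a1, ENSMUSG00000025650, chromosome 9, 108953586 to 108984875, plus strand) had 106, 89.3, 104 and 110.0 CPM in RMN030 to RMN033 and 60.7, 73.6, 59.4 and 76.7 CPM in RMN036 to RMN039, so every later library was below every earlier one. By the description codes it was 102 ± 9.06 CPM in the 4 WT libraries and 67.6 ± 8.84 CPM in the 4 KO libraries (mean ± SD), a log2 difference of -0.56 ± 0.12 (SE, edgeR adjusted p = 0.0321). The call was lost without any 1 of 6 libraries (adjusted p up to 0.104) and kept without RMN031 or RMN039. By the title codes Col7a1 was 82.4 ± 19.5 CPM in the 4 WT libraries and 87.6 ± 23.8 CPM in the 4 KO libraries (mean ± SD), a log2 difference of 0.08 ± 0.20 (SE, edgeR adjusted p = 0.998). The undisputed libraries gave -0.48 ± 0.20 (SE, edgeR adjusted p = 0.391), which missed the threshold.

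Collagen XVII (Col17a1, ENSMUSG00000025064, chromosome 19, 47646344 to 47692094, minus strand) was at 2075, 1990.0, 2585 and 2563 CPM in RMN030 to RMN033 and 2036, 2138, 1635 and 2086 CPM in RMN036 to RMN039. RMN032 and RMN033 were the highest and RMN038 the lowest. The log2 difference was -0.08 ± 0.14 in the undisputed libraries, -0.18 ± 0.10 by the description codes and 0.09 ± 0.12 by the title codes (SE, edgeR adjusted p = 0.901, 0.528 and 0.998). Col17a1 alone made up 64.7% to 77.6% of the CPM of the whole set in a library. The 10 keratinocyte markers, Krt5 and Krt14 of the basal layer among them, were all detected in every library and summed to 12157 to 15596 CPM in the earlier and 12489 to 14412 CPM in the later run. In the description reading Krt1 and Krt79 rose and Krt15 and Trp63 fell. In the undisputed libraries Krt79 rose and Trp63 fell. By the title codes 0 of the 10 passed with edgeR (1 at an unadjusted p below 0.05, and 0 by DESeq2). The sort gate required CD45, which keratinocytes and fibroblasts lack. The part of the keratinocyte genes in the levels of Col7a1 and Col17a1 was not tested.

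Of the fibril-associated collagens, Col16a1 had 209, 204, 220.5 and 269 CPM in RMN030 to RMN033 and 196, 179.5, 188 and 181 CPM in RMN036 to RMN039. The later libraries were all below the earlier ones, but by a log2 difference of only -0.24 ± 0.10 (SE, edgeR adjusted p = 0.306). Col20a1 had 6.26, 2.53, 6.68 and 5.22 CPM in RMN030 to RMN033 and 8.87, 9.65, 19.0 and 14.6 CPM in RMN036 to RMN039, without overlap. Its log2 difference was 1.38 ± 0.34 by the description codes (SE, edgeR adjusted p = 0.0540), just short of the threshold, and 1.99 ± 0.44 in the undisputed libraries (SE, edgeR adjusted p = 0.0807). DESeq2 called Col20a1 in both.

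Basement membrane collagens had sums of 106, 77.5, 105 and 118 CPM in RMN030 to RMN033 and 87.5, 75.9, 87.6 and 87.5 CPM in RMN036 to RMN039. Col18a1, the source of endostatin, differed by -0.28 ± 0.15 by the description and -0.03 ± 0.17 by the title codes. Col4a5 and Col4a6, neighbouring genes whose chains assemble together in skin basement membrane, differed by 0.14 ± 0.20 and -0.48 ± 0.22 by the description codes. By the title codes the values were 0.12 ± 0.21 for Col4a5 and 0.43 ± 0.23 for Col4a6, so Col4a6 changed sign between the readings. Col4a1, of the ubiquitous collagen IV network, had 6.41, 5.17, 9.07 and 7.07 CPM in RMN030 to RMN033 and 2.76, 2.82, 11.4 and 8.14 CPM in RMN036 to RMN039. RMN036 and RMN037 were the lowest, so that the WT and KO libraries of the title reading did not overlap. In the title reading Col4a1 differed by 1.06 ± 0.32 on the log2 scale (SE, edgeR adjusted p = 0.998), with 0.44 within the earlier and 1.84 within the later run.

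Within each code run the title genotypes can be compared with the run held constant. In the earlier run the title WT libraries are RMN030 and RMN031, the pair with T cell transcripts. All 7 tested T cell markers were called lower in KO there, so genotype by title and these transcripts cannot be told apart in that run. In the earlier run 0 of 34 tested genes of the set passed with edgeR, with 4 at an unadjusted p below 0.05, where 0.375% of all tested genes were called. In the later run 0 of 40 passed, with 3 at an unadjusted p below 0.05, and 0 of all 14934 tested genes (percent called 0). Col1a2 was lower in the title KO of the earlier run by a log2 difference of -1.30 ± 0.39 and differed by 0.35 ± 0.41 in the later run (SE, edgeR adjusted p = 0.384 and 0.927). For Dcn the values were -0.65 ± 0.33 and 0.61 ± 0.28, and for Sparc 0.21 ± 0.27 and -0.04 ± 0.26. Col7a1 gave 0.10 ± 0.16 and 0.05 ± 0.18. The difference between the runs was tested as an interaction, in which 0 of 41 tested genes of the set passed with edgeR, 7 had an unadjusted p below 0.05, and 0.0186% of all tested genes were called. DESeq2 called 1, Postn, whose interaction term with edgeR was -0.66 ± 0.16 (SE, edgeR adjusted p = 0.310).

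Genes that modify, bind and surround collagen were measured as well. Of 22 genes for collagen modification, folding and processing, 17 were tested by the description codes, and 2 rose: Pcolce, the enhancer of procollagen cleavage, and P3h2, a prolyl hydroxylase. Pcolce had 0.535, 0.215, 0.184 and 0.316 CPM in RMN030 to RMN033 and 2.76, 1.80, 1.14 and 2.08 CPM in RMN036 to RMN039 (log2 difference 2.66 ± 0.62, SE, edgeR adjusted p = 0.0444). P3h2 had 8.09, 6.46, 9.68 and 6.49 CPM in RMN030 to RMN033 and 18.4, 20.7, 35.7 and 10.2 CPM in RMN036 to RMN039 (log2 difference 1.51 ± 0.32, SE, edgeR adjusted p = 0.0264). The collagen chaperone Serpinh1 had 6.41, 4.74, 9.07 and 8.75 CPM and 10.8, 9.95, 7.81 and 10.7 CPM and was not called. The median log2 difference of the tested genes of this list was -0.03, beside -0.01 over all tested genes. Of 9 measured collagen receptors, 7 were tested and 0 passed by the description codes, with 2 at an unadjusted p below 0.05 and 0 called by DESeq2. Of 23 other dermal matrix genes, 19 were tested and 3 rose by the description codes: Eln, the elastin precursor (5.0 ± 0.82), Fmod, a proteoglycan that binds collagen (2.47 ± 0.57), and Prelp, which anchors basement membranes to collagen (1.67 ± 0.34, all log2 differences with SE; edgeR adjusted p = 0.00637, 0.0441 and 0.0232). The median of the tested genes of this list was 1.06, and it likewise describes only the genes that passed the filter. In the undisputed libraries and by the title codes 0 genes of these 3 lists passed with edgeR (13 and 2 at an unadjusted p below 0.05; by DESeq2, 3 and 0).

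Markers of other cells of the skin were summed in each library. The 10 fibroblast markers outside the set summed to 2097 to 2491 CPM in the earlier and 1869 to 2124 CPM in the later run, nearly all from Gsn and Lrp1, which other cells also express. Of these 10, 6 were tested by the description codes, 0 rose and Lrp1 fell, and the median log2 difference of the 6 was 0.42. Gsn, Lrp1 and Thy1 had lower means in the later run. The other 7 were all low, with higher means in the later run: Dpt at 0.402 and 1.27 CPM, Serping1 at 0.489 and 1.59, Prrx1 at 0.144 and 0.652, Pi16 at 0.279 and 0.646, Cd34 at 0.553 and 1.05, Clec3b at 0.0705 and 0.0752 and Twist2, a fibroblast transcription factor, at 0 and 0.0452. Of these 7, Dpt (1.72 ± 1.05), Serping1 (1.72 ± 0.93) and Cd34 (0.96 ± 0.89, log2 differences with SE) were tested by the description codes and were not called (edgeR adjusted p = 0.559, 0.488 and 0.743). Twist2 was at 0 in 7 libraries and Clec3b in 4. Of 8 mast cell markers 6 were tested and 4 rose by the description codes, Mcpt4, Cma1, Cpa3 and Tpsb2, with Cpa3 at 0 in RMN033. Kit, the most abundant of the 8, went the other way, with means of 31.4 CPM in the earlier and 24.2 CPM in the later run. Its log2 difference was -0.33 ± 0.18 (SE, edgeR adjusted p = 0.505). The mast cell list summed to 36.8 to 46.1 CPM in the earlier and 58.4 to 75.0 CPM in the later run. By the description codes the 5 blood markers all rose, with sums of 122 to 226 CPM and 580 to 1355 CPM. Of 8 macrophage markers Lyz2 and F13a1 rose and C1qa fell in that reading, with sums of 2595 to 2952 CPM and 2184 to 2701 CPM. In the undisputed libraries 1 of 7 tested mast cell, 5 of 5 blood and 3 of 8 macrophage markers rose and 0 fell. By the title codes 0 genes of these 3 lists passed with edgeR (0, 0 and 1 at an unadjusted p below 0.05, and 0 by DESeq2). Of 7 measured endothelial, 7 pericyte and smooth muscle, 6 melanocyte and 5 Schwann cell markers, 2, 4, 3 and 3 were tested by the description codes. In the description reading 0 of these markers passed with edgeR (1 at an unadjusted p below 0.05, and 0 by DESeq2). Their sums were 16.5 to 27.4, 20.2 to 31.7, 9.85 to 14.5 and 130 to 173 CPM in the earlier and 10.7 to 49.3, 17.6 to 29.8, 9.59 to 33.2 and 131 to 164 CPM in the later run. The endothelial gene Cdh5 was at 0 in 6 libraries and the melanocyte gene Mlana in 6. Their part in the higher level of the matrix genes in the later run was not tested.

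Without both RMN030 and RMN031, the pair with T cell transcripts, the description reading called 7 genes of the set higher in KO, Dcn, Sparc, Bgn, Col1a1, Col1a2, Col3a1 and Col8a2, and 0 lower, with Col7a1 at -0.61. The share of all genes called in that fit is not given here, so this number does not set these genes apart from others. Col8a2, a partner of Col8a1, had 3.05, 0.108, 0 and 0.422 CPM in RMN030 to RMN033 and 4.71, 3.36, 6.04 and 4.52 CPM in RMN036 to RMN039.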

How the data were processed

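The authors deposited raw read counts per gene for 25247 Ensembl genes in 8 libraries of sorted cells. Alignment by STAR 2.5.2b and counting by featureCounts 1.5.0 on GRCm38 (mm10) are recorded in the submitters' processing notes; the annotation release, strand setting and handling of read pairs are not given in the sources used here. Of counts from 1 to 20, 60.1% were even, so mates may have been counted separately, which makes counting intervals too narrow. Without strand, reads of a gene and of an antisense partner cannot be told apart. Symbols came from a table of mouse gene names (25080 identifiers matched, 167 did not), and coordinates, gene types and exon lengths (union of exons) from GENCODE M21. Col24a1, Col6a4, Col6a5, Col21a1, Col13a1 and Col25a1 were not analysed here, and 0 columns were left unused.

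Tests used edgeR 4.0.16 in R 4.3.3 on the counts as deposited, fitted over all genes that passed filterByExpr: TMM normalization, robust quasi-likelihood fits, two-sided F-tests of KO minus WT, Benjamini-Hochberg adjustment and a threshold of 0.05. The SE of a log2 difference comes from the F statistic. The step was tested on simulated data. As alternatives, the fits were repeated with RLE size factors, without the filter or with one at 1 CPM, with DESeq2 1.42.0 and with limma 3.58.1 (voom with quality weights). They were also repeated without each library in turn, with a block for the replicate number, and with the code run or the title genotype as a covariate. The fit without both RMN030 and RMN031 was added after seeing the data. When an undisputed library is omitted, 1 library remains in its group, and it is taken to vary as the libraries of the other group do.

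The genes, lists and tests were chosen with earlier results of these data known. Named were genes past the threshold in a fit, up to 4 per fit with the smallest p among the rest, the 10 highest by mean CPM and by CPM per kilobase, and Col1a1, Col1a2, Col3a1, Col7a1, Col17a1, Dcn, Lum and Sparc. Of the lists outside the set, up to 4 genes past the threshold were named. Other genes named were chosen after their values were seen, among them Col8a2, Pdgfra, Pdgfrb, Mfap5, Fbn1, Vcan, Lox, Serpinh1, the fibroblast markers and the markers at 0.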

Additional observations from a re-analysis of the deposited data

Results flagged for a closer look

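In 3 of 92 groups of 4 libraries examined, 1 library stood apart from the other 3 of its group by Dixon's test at the 95% level; chance gives this in about 1 in 20 groups. Col2a1 was at 13.7 CPM in RMN037 and at 2.81 to 4.40 CPM in the other 3 KO libraries of the description reading. Col6a2 was at 8.75 CPM in RMN037 and at 1.68 to 1.88 CPM in the other 3 WT libraries of the title reading. Dcn was at 58.6 CPM in RMN038 and at 28.9 to 33.1 CPM in the other 3 KO libraries of the description reading.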

How the results depend on the processing

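Dcn, Sparc and Bgn stayed past the threshold in all 16 alternatives of the description reading and in each alternative that kept all 4 undisputed libraries. Leaving out 1 undisputed library puts 1 library in a group, so only effect sizes are given. The log2 differences then were 1.72 to 2.53 for Dcn, 1.41 to 2.06 for Sparc and 1.63 to 2.53 for Bgn. In the undisputed libraries, where 4 genes of the set were called, no filter gave 11 and DESeq2 7, and leaving out 1 library gave 5 to 10. By the description codes, where 9 were called, the replicate block gave 5 (Dcn, Sparc, Bgn, Lum and Col2a1), leaving out 1 library gave 4 to 8, and limma voom gave 11 and DESeq2 12. By the title codes 0 were called in each of 15 alternatives. The interaction, with 0 calls, gave 2 without a filter (Col1a2 and Col3a1) and 1 with DESeq2 (Postn). The shares of all genes called in these alternatives are not given here, so the counts do not speak of this set alone. The cause of these changes was not tested. Libraries with the same replicate number shared little deviation from the group means. The correlation of their deviations was 0.05 to 0.10 in the title and -0.01 to 0.03 in the description reading. In each reading 1 of 4 numbers paired best with its own, so no clear pairing by number was seen.

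In the title reading each library was left out in turn, and the lowest and highest log2 differences over these fits are given. They were -0.0085 and 0.17 for Col16a1, -0.13 and 0.10 for Col18a1, -0.33 and 0.30 for Col1a1, and -1.0 and 0.29 for Col1a2. For Col3a1 they were -0.48 and 0.44, for Col6a1 -0.17 and 0.70, and for Col7a1 -0.046 and 0.23. Dcn had -0.41 and 0.71, and Sparc -0.46 and 0.44. With limma voom on all 8 libraries the log2 difference was 0.063 for Col18a1, -0.21 for Col1a1, -0.65 for Col3a1, -0.48 for Dcn and -0.19 for Sparc. With the replicate block it was -0.054 for Col1a1, -0.18 for Col3a1 and -0.0078 for Dcn. With the code run as a covariate it was -0.089 for Col1a1 and -0.47 for Col3a1. In the undisputed libraries the lowest and highest values without 1 library were -0.28 and 0.081 for Col17a1 and -0.34 and 0.22 for Col4a6. By the description codes Col4a5 was -0.088 without both RMN030 and RMN031. The fibrillar sum differed by 1.22 to 1.67 on the log2 scale in every alternative of the description reading and by -0.67 to 0.04 in those of the title reading. Depth limits the sparse genes: 18 of the 51 were too low to be tested in the readings of 8 libraries.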

Other observations

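Some genes of the set with few counts were spread unevenly over the libraries; they were chosen after their values were seen, and none was tested in either reading of 8 libraries because of the filter on low counts. Col4a3, a chain of the collagen IV network of kidney and lung, had 8, 9, 6 and 8 counts in RMN030 to RMN033 and 0, 0, 1 and 1 in RMN036 to RMN039. Vcan, the proteoglycan versican, had 52 counts in RMN037 and 96 in RMN039 and 0 in RMN036 and RMN038. Col28a1 had 8, 23, 29 and 0 counts in RMN036 to RMN039 and 3, 0, 0 and 0 in RMN030 to RMN033. Col11a1, a minor fibrillar chain, had 8, 0, 0 and 4 counts in the earlier run and 30, 16, 12 and 2 in the later run. The highest count of Fbn1 was 30, in RMN039, and that of Pdgfra 36, in RMN038.

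Col12a1, a fibril-associated chain of skin and tendon, had 8.40, 12.2, 10.8 and 11 CPM in RMN030 to RMN033 and 7.26, 15.4, 8.52 and 7.42 CPM in RMN036 to RMN039, and the runs overlapped. Col9a1, a chain of cartilage collagen IX, had 2.90, 2.26, 3.19 and 4.59 CPM and 6.19, 4.44, 3.84 and 1.45 CPM in the same order, also with overlap. Col23a1, a transmembrane collagen, had 2.52, 3.99, 6.92 and 2.32 CPM and 4.84, 7.67, 8.24 and 6.24 CPM, and its log2 difference in the description reading was 0.83 ± 0.36 (SE, edgeR adjusted p = 0.346).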
